A study of Mus musculus with 71 samples.

Results

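The comparison described here is the hippocampal response 1 h after object recognition memory (ORM) training in male C57BL/6J mice that had eaten normal chow (NC) without restriction since weaning. It sets 6 trained mice (ORM+1 h) against 6 mice left in their home cage and taken at zt3, that is 3 h after lights on (HC zt3), and both groups share the strain, sex, chow and ad lib feeding. These are 12 of the 71 mice of the series, whose other groups ate a high-fat, high-sucrose (HFS) diet or were taken at other times. Training was a single session with objects, and the home cage mice had none, so that handling, novelty and learning cannot be told apart. By the study's methods training took place in a window around zt3 and the mice were taken 1 h after it, so that trained mice could be taken later in the day than the home cage mice, and time of day cannot be told apart from training either. From each hippocampus, mRNA on ribosomes carrying phosphorylated ribosomal protein S6 was pulled down with an antibody (pS6-TRAP) and sequenced. No allele, drug or transgene was involved. All 30141 of the 57010 genes in the table that had at least 10 counts in total were tested, and the account below follows the genes by function and cell type, leaving the astrocyte and immediate early genes as a reference.

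Phosphorylation of S6 follows activity of the mTOR and MAPK pathways, so that the antibody enriches for mRNA being translated in recently active cells. After a learning session, calcium and cAMP signals reach the nucleus of neurons and act on transcription factors such as CREB, which binds the cAMP response element (CRE), and on serum response factor. The first genes to follow encode transcription factors, and others encode feedback inhibitors of the kinases, chaperones and synaptic proteins. Astrocytes respond to the same session through transmitter, potassium and metabolic signals, and choroid plexus tissue, which lies against the hippocampus, can be carried along in a dissection.

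Each home cage mouse had 48891465 to 57592415 counts in total and each trained mouse 49761087 to 57984841. Values in brackets after a gene are its log2 fold changes. Levels are given as CPM (counts of a gene relative to the library total, on the usual scale) after TMM normalization, as the lowest, median and highest of the 6 mice of a group. Changes are log2 fold changes of ORM+1 h against HC zt3 from a model of all 12 groups of the series. A gene rose or fell where its p by the quasi-likelihood test of edgeR, adjusted after Benjamini and Hochberg for all 30141 genes, was under 0.05. By this rule 1215 genes rose, which is 4.03% of those tested, and 512 fell, which is 1.70%, or 5.73% in either direction. The number that fell, and with it the share of 1.70%, moved with the method and with single mice. It was 304 without HC zt3 replicate 4, 1058 in DESeq2, 1062 with the filterByExpr filter of edgeR and 1582 with the replicate number as a block in the 12 mice alone. Of the 1215, 405 rose more than 2-fold, and 17 of the 512 fell more than 2-fold. The median log2 fold change was 0.72 among the genes that rose, -0.31 among those that fell and 0.00 over all genes tested. In 3.19% of all genes every trained mouse was above every home cage mouse, and in 1.48% every trained mouse was below. They included 812 of the 1215 genes that rose and 251 of the 512 that fell. Of the 17601 protein-coding genes tested 1143 rose and 451 fell, larger shares than over all genes. The lists below hold almost only protein-coding genes, for which 4.03% and 1.70% are therefore low yardsticks. A list of which at most 6.45% rose, or at most 2.50% fell, was not above the share of protein-coding genes.

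The 2 responses used as a reference were large. Of 31 immediate early genes 25 rose, among them Egr4 (1.9) and Junb (1.57), and Fos had 8.13, 13.7 and 20.6 CPM at HC zt3 and 70.7, 94 and 101 CPM at ORM+1 h. Its log2 fold change was 2.7 ± 0.33 (SE, adjusted p = 2.1e-08). All 20 astrocyte markers rose, with a median log2 fold change of 1.42, among them Gja1, the gap junction protein connexin 43, which had 24.1, 26.5 and 35.9 CPM at HC zt3 and 74, 95.2 and 146 CPM at ORM+1 h. The mean log2 CPM over the 20 markers, called the astrocyte marker level here, was 5.25 to 5.82 in the home cage mice and 6.66 to 7.31 in the trained mice, so that the groups did not overlap. Of 19 core clock genes 8 rose, among them Nfil3 (1.08), and none fell. In such bulk samples more astrocytes, more RNA per astrocyte and more of its ribosomes in the pulldown cannot be told apart.

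Because this level moved with training, most results below are also given from a model with the astrocyte marker level of each mouse as a covariate, added after the data had been seen. In that model 261 genes rose (0.866% of those tested) and 104 fell (0.345%). Of the 1215 genes that rose without the covariate 178 also rose with it, and of the 512 that fell 57 also fell. As the levels of the groups compared did not overlap, the adjusted values rest on the slope within the groups of all 71 mice. Over the 59 mice outside this comparison, with the group means removed, the correlation of a gene with the level was above 0.5 for 47.2% of the genes that rose and for 2.56% of all genes tested. The points share the library and the normalization of a mouse. Fos kept a log2 fold change of 2.06 with the covariate, and Gja1, which is itself part of the level, had 0.041.

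The CRE was more frequent in promoters of genes that rose with the covariate, a difference that was not tested. The palindrome TGACGTCA, which reads the same on both strands, was looked for from 250 bases before to 50 bases after the transcript start of 17601 protein-coding genes in GRCm39. It was in 2.73% of these promoters, in 3.50% of the 1143 of genes that rose, in 2.00% of the 451 of genes that fell and in 8.57% (21 of 245) of those that rose with the covariate. Of the 176 whose genes rose in both models 15 held it (8.52%). The E-box CACGTG was in 8.99% of all promoters, 11% of those of genes that rose and 8.98% of those that rose with the covariate. The CArG box of serum response factor was in 1.47%, 2.19% and 2.45% of the same sets. CRE and E-box overlapped in 2 promoters. A match is a run of letters and does not show that a factor binds there. The following 4 stretches, read 5′ to 3′ on the strand of the gene and ending before the transcript start, are shown because their genes rose in both models and are described below, and the CRE is in capitals.
Errfi1, chr4:150939436-150939521, forward strand: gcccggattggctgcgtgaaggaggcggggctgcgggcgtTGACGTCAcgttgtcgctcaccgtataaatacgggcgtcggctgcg
Trib1, chr15:59520043-59520130, forward strand: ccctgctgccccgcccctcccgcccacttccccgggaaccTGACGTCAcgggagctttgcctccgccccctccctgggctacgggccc
Arl5b, chr2:15059970-15060057, forward strand: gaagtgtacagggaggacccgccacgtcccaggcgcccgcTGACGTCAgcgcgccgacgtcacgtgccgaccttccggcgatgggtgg
Fbxo33, chr12:59266597-59266684, reverse strand: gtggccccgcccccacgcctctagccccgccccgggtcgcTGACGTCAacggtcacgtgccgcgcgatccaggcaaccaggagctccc
The CRE began 46 bases before the transcript start in Errfi1, 64 in Trib1, 124 in Arl5b and 133 in Fbxo33.

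**Figure D1:**
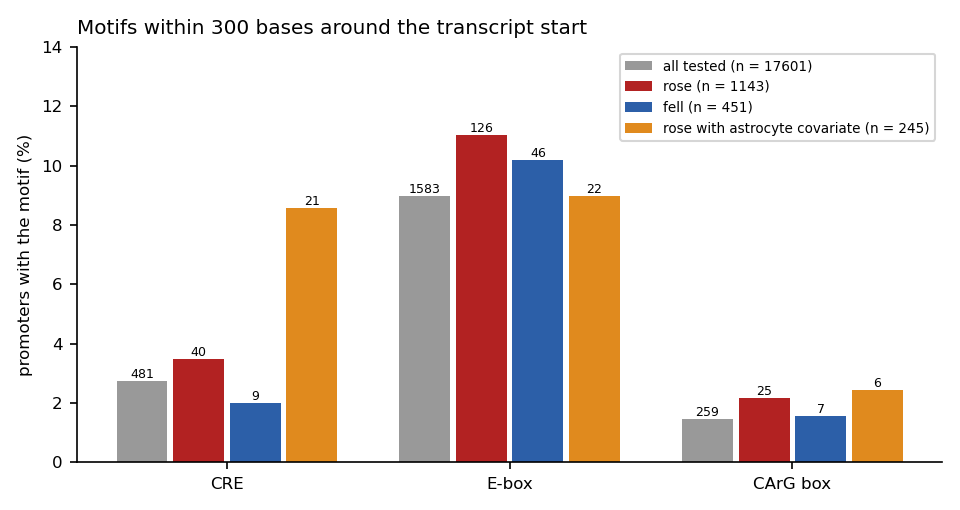
Share of promoters (%) that hold the CRE, the E-box or the CArG box between 250 bases before and 50 after the transcript start, with the number of promoters that hold it on each bar. The CRE was in 2.73% of all 17601 promoters and in 8.57% of the 245 promoters of genes that rose with the astrocyte covariate.

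Outside the reference lists, the 10 protein-coding genes that rose with the smallest p were Errfi1, Sertad1, Trib1, Mcl1, Dusp5, Arl5b, Gpt2, Arid5a, Rsrp1 and Tiparp. Errfi1 (ENSMUSG00000028967, chromosome 4 from 150938376 to 150955402 of GRCm39), which binds and inhibits the EGF receptor, had 49.2, 52.2 and 71.9 CPM at HC zt3 and 98.4, 119 and 131 CPM at ORM+1 h. The log2 fold change of the gene was 1.06 ± 0.095 (SE, adjusted p = 7.1e-13). Trib1, a pseudokinase of the Tribbles family, had 10.0, 10.5 and 15.2 CPM at HC zt3 and 28.2, 33.3 and 41 CPM at ORM+1 h, a log2 fold change of 1.55 ± 0.17 (SE, adjusted p = 9.7e-10). For both genes the trained mice were all higher than the home cage mice. Mcl1, an anti-apoptotic protein of the BCL2 family, had 58.4, 61.5 and 69.9 CPM at HC zt3 and 87.6, 91.6 and 113 CPM at ORM+1 h, a log2 fold change of 0.60 ± 0.067 (SE, adjusted p = 9.7e-10). Bbc3, which encodes the pro-apoptotic BCL2 family member PUMA and was chosen after its values were seen, moved the other way, with 6.68, 8.16 and 8.95 CPM at HC zt3 and 4.12, 4.55 and 5.72 CPM at ORM+1 h and a log2 fold change of -0.76 ± 0.15 (SE, adjusted p = 3.1e-04). Neither gene's groups overlapped. Gpt2, the mitochondrial alanine aminotransferase, had 56.4, 68.4 and 83.4 CPM at HC zt3 and 97.4, 116 and 145 CPM at ORM+1 h, and Arl5b, an Arf-like GTPase of the trans-Golgi, had 17.6, 21.4 and 23.1 CPM at HC zt3 and 39.1, 48.8 and 59.5 CPM at ORM+1 h. The log2 fold changes of these genes were 0.75 and 1.22, beside 1.06 for Sertad1, a cofactor of cyclin-dependent kinase 4, 1.06 for Arid5a, which stabilizes cytokine mRNA, and 1.51 for Tiparp, an ADP-ribosyltransferase. All 10 genes also rose with the astrocyte covariate, with log2 fold changes from 0.46 in Mcl1 to 1.45 in Arl5b, and all 10 rose in each of the 12 fits that left out 1 mouse.

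The 10 that fell with the smallest p were Frat1, Dact2, Mapk1ip1, Ccdc177, Fam110b, Rnf112, Zfp821, Nfkbil1, Ccsap and Smim10l2a, with log2 fold changes between -0.63 and -0.32. Dact2, which antagonizes Dishevelled, had 39.7, 41.2 and 48.9 CPM at HC zt3 and 23.8, 27.9 and 33.1 CPM at ORM+1 h. Its log2 fold change was -0.63 ± 0.10 (SE, adjusted p = 4.7e-06). Rnf112, a RING finger protein abundant in brain, had 493, 522 and 576 CPM at HC zt3 and 309.9, 376 and 461 CPM at ORM+1 h, a log2 fold change of -0.47 ± 0.08 (SE, adjusted p = 3.5e-05). In both genes the highest trained mouse lay under the lowest home cage mouse. The other 8 had log2 fold changes from -0.56 in Frat1, which binds GSK3, to -0.32 in Fam110b, a centrosomal protein, without overlap of the groups. With the astrocyte covariate Frat1, Dact2, Mapk1ip1, Ccdc177, Zfp821 and Nfkbil1 also fell, and Rnf112 (-0.33, adjusted p = 0.056), Fam110b (-0.22, adjusted p = 0.057), Ccsap (-0.24, adjusted p = 0.16) and Smim10l2a (-0.34, adjusted p = 0.087) did not pass.

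**Figure D2:**
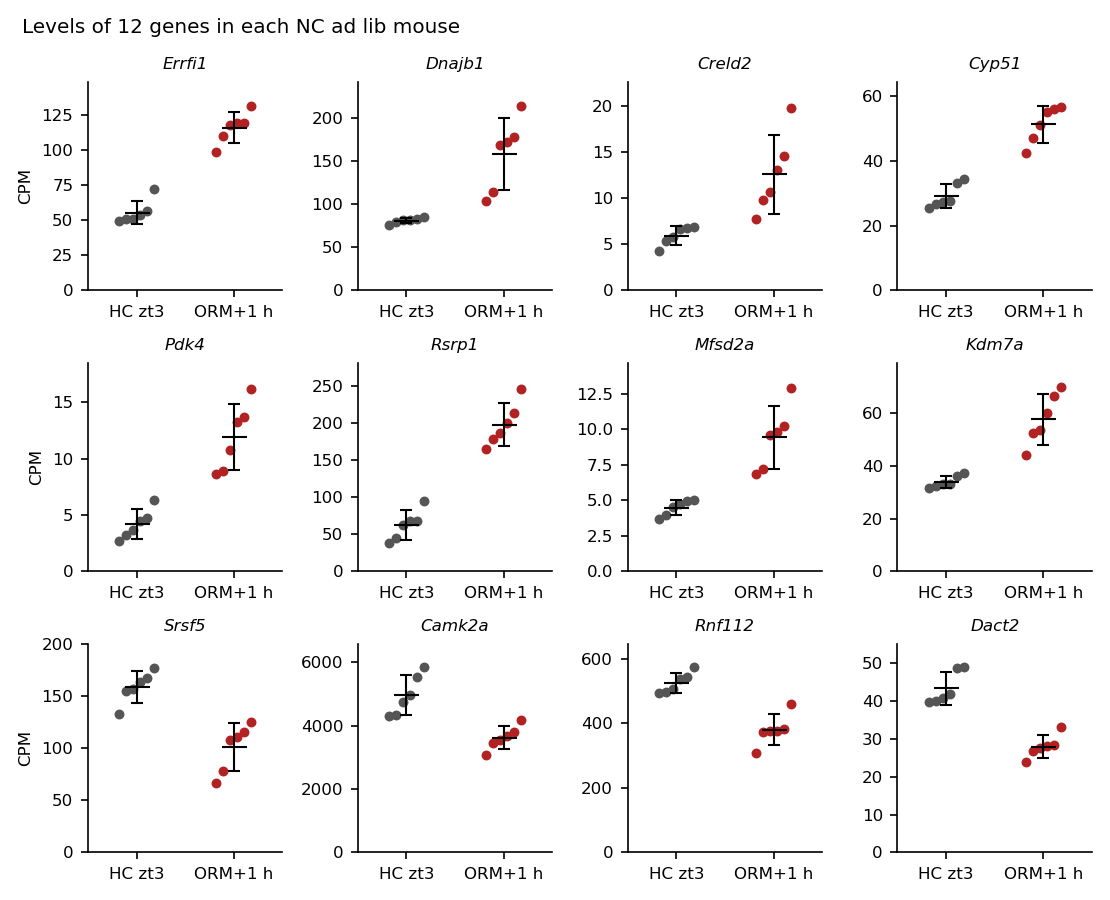
CPM of 12 genes in each of the 6 HC zt3 mice (grey) and 6 ORM+1 h mice (red), with the mean and the SD as bars. Errfi1 lay between 49.2 and 71.9 CPM in the home cage mice and between 98.4 and 131 in the trained mice, and in none of the 12 genes did the groups overlap.

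Several chaperones of the cytosol rose. Of 25 heat shock chaperones 7 rose (28.0%, against 4.03% of all genes) and none fell, with a median log2 fold change of 0.20. Dnajb1 (ENSMUSG00000005483, chromosome 8 from 84334811 to 84339820), an inducible J-domain partner of Hsp70, had 76, 82 and 85.4 CPM at HC zt3 and 105, 171 and 214 CPM at ORM+1 h. The log2 fold change of the gene was 0.97 ± 0.12 (SE, adjusted p = 4.9e-08), and the lowest trained mouse exceeded the highest home cage mouse. Dnajb5, a further J-domain protein, had 244, 251 and 288 CPM at HC zt3 and 302, 366 and 442 CPM at ORM+1 h, a log2 fold change of 0.48 ± 0.095 (SE, adjusted p = 2.9e-04). Bag3, which links Hsp70 to selective autophagy, had 12.9, 14.9 and 17.1 CPM at HC zt3 and 18.4, 23.7 and 28.9 CPM at ORM+1 h, a log2 fold change of 0.69 ± 0.15 (SE, adjusted p = 9.2e-04). The groups did not overlap in these genes either, while the trained mice spread over a wider range than the home cage mice. The other 4 that rose were the J-domain proteins Dnajb4 (0.39) and Dnaja4 (0.34), the mitochondrial co-chaperonin Hspe1 (0.31) and the small heat shock protein Cryab (0.72). The stress-inducible Hsp70 gene Hspa1a had a log2 fold change of 0.42 ± 0.14 (SE, adjusted p = 0.055) and the constitutive Hspa8 one of 0.16 ± 0.093 (SE, adjusted p = 0.36), neither past the threshold. With the astrocyte covariate 7 members rose, 6 of the first 7 and Chordc1, and the median was 0.39. Without ORM+1 h replicate 6 only 4 of the 7 passed. The fits that leave out mice, here and below, are of the model without a covariate. With 1 mouse left out at a time, the call was lost in the given number of the 12 fits (largest adjusted p in brackets) for Dnaja4 in 1 (0.097 when ORM+1 h replicate 6 was left out), Hspe1 in 2 (0.15 when ORM+1 h replicate 6 was left out) and Cryab in 6 (0.19 when ORM+1 h replicate 6 was left out).

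The unfolded protein response of the endoplasmic reticulum (ER) showed a similar count. Of 26 members 8 rose (30.8%) and none fell, with a median log2 fold change of 0.37. Hspa5 (ENSMUSG00000026864, chromosome 2 from 34661982 to 34668880), the ER Hsp70 known as BiP, had 221, 232 and 243 CPM at HC zt3 and 282, 432 and 602 CPM at ORM+1 h. Its log2 fold change was 0.91 ± 0.26 (SE, adjusted p = 0.018). Creld2, a secreted ER stress protein, had 4.25, 6.24 and 6.85 CPM at HC zt3 and 7.70, 11.9 and 19.8 CPM at ORM+1 h, a log2 fold change of 1.08 ± 0.27 (SE, adjusted p = 0.0068). In both genes the groups did not overlap, and the trained mice ranged over more than the home cage mice did. Pdia4, a disulfide isomerase, had 22.2, 27.8 and 31 CPM at HC zt3 and 34.3, 58.9 and 66.9 CPM at ORM+1 h, a log2 fold change of 0.97 ± 0.26 (SE, adjusted p = 0.0099). Atf4, the transcription factor of the integrated stress response, had 182, 192 and 203 CPM at HC zt3 and 223, 254 and 285 CPM at ORM+1 h, a log2 fold change of 0.39 ± 0.077 (SE, adjusted p = 3.2e-04). The rest that rose were Sdf2l1 (1.24), the J-domain proteins Dnajc3 (0.68) and Dnajb9 (0.47) and the lectin chaperone calnexin (Canx, 0.30). Ddit3, the pro-apoptotic factor CHOP, had a log2 fold change of 0.36 ± 0.14 (SE, adjusted p = 0.13). With the astrocyte covariate again 8 rose, among them Xbp1 (0.95, adjusted p = 0.0084) and Manf (1.3, adjusted p = 0.0074), which without it had 0.55 (adjusted p = 0.061) and 0.77 (adjusted p = 0.053). The list's median was then 0.54, and Hspa5 had 1.42 (adjusted p = 0.0038). Without ORM+1 h replicate 4 only 4 of the 8 passed. Choroid plexus markers, given below, were high in ORM+1 h replicates 1, 4 and 6. Without these 3 mice 1 member of this list and 3 of the heat shock list rose, where 2.09% of all genes did, and the log2 change was then 0.70 (adjusted p = 0.36) for Hspa5 and 0.86 (adjusted p = 2.3e-05) for Dnajb1. Leaving out single mice cost the call in the given number of 12 fits (largest adjusted p in brackets) for Hspa5 in 1 (0.071 when ORM+1 h replicate 4 was left out), Sdf2l1 in 1 (0.093 when ORM+1 h replicate 4 was left out), Dnajc3 in 3 (0.065 when ORM+1 h replicate 6 was left out) and Canx in 8 (0.15 when ORM+1 h replicate 1 was left out).

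Several feedback inhibitors of growth factor signalling and later activity-induced effectors rose in both models. Of 23 phosphatases of MAP kinases and inhibitors of receptor kinases 9 rose (39.1%, against 4.03% of all genes) and 1 fell (4.35%, against 1.70%), with 8 rising under the covariate, where 0.866% of all genes did. Dusp5, a nuclear ERK phosphatase, had 33.3, 37.1 and 52.2 CPM at HC zt3 and 63.3, 81.1 and 91.5 CPM at ORM+1 h, a log2 fold change of 1.02 ± 0.11 (SE, adjusted p = 9.7e-10). Rasal1, a GTPase-activating protein for Ras, was the 1 that fell, by 0.31 on the log2 scale (adjusted p = 0.0065). Of 32 effectors 10 rose (31.2%) and none fell, and 10 rose with the covariate. Plk3, a polo-like kinase, had 6.95, 7.92 and 10.1 CPM at HC zt3 and 13.4, 15.9 and 18.1 CPM at ORM+1 h, a log2 fold change of 0.90 ± 0.13 (SE, adjusted p = 9.1e-07). Homer1, whose short activity-induced form loosens the postsynaptic scaffold, had 212, 255 and 272 CPM at HC zt3 and 331, 445 and 644 CPM at ORM+1 h, a log2 fold change of 0.88 ± 0.17 (SE, adjusted p = 2.6e-04). All trained mice were above all home cage mice in the 3 genes named as rising. The adhesion protein Amigo3 (1.22), the CREB family repressor Crem (0.63) and the ubiquitin ligase adaptor Fbxo33 (0.54) also rose. Bdnf, the neurotrophin, had 64, 68.9 and 84.9 CPM at HC zt3 and 78.3, 82.5 and 101 CPM at ORM+1 h. Its groups overlapped and its log2 fold change was 0.29 ± 0.14 (SE, adjusted p = 0.25).

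**Figure D3:**
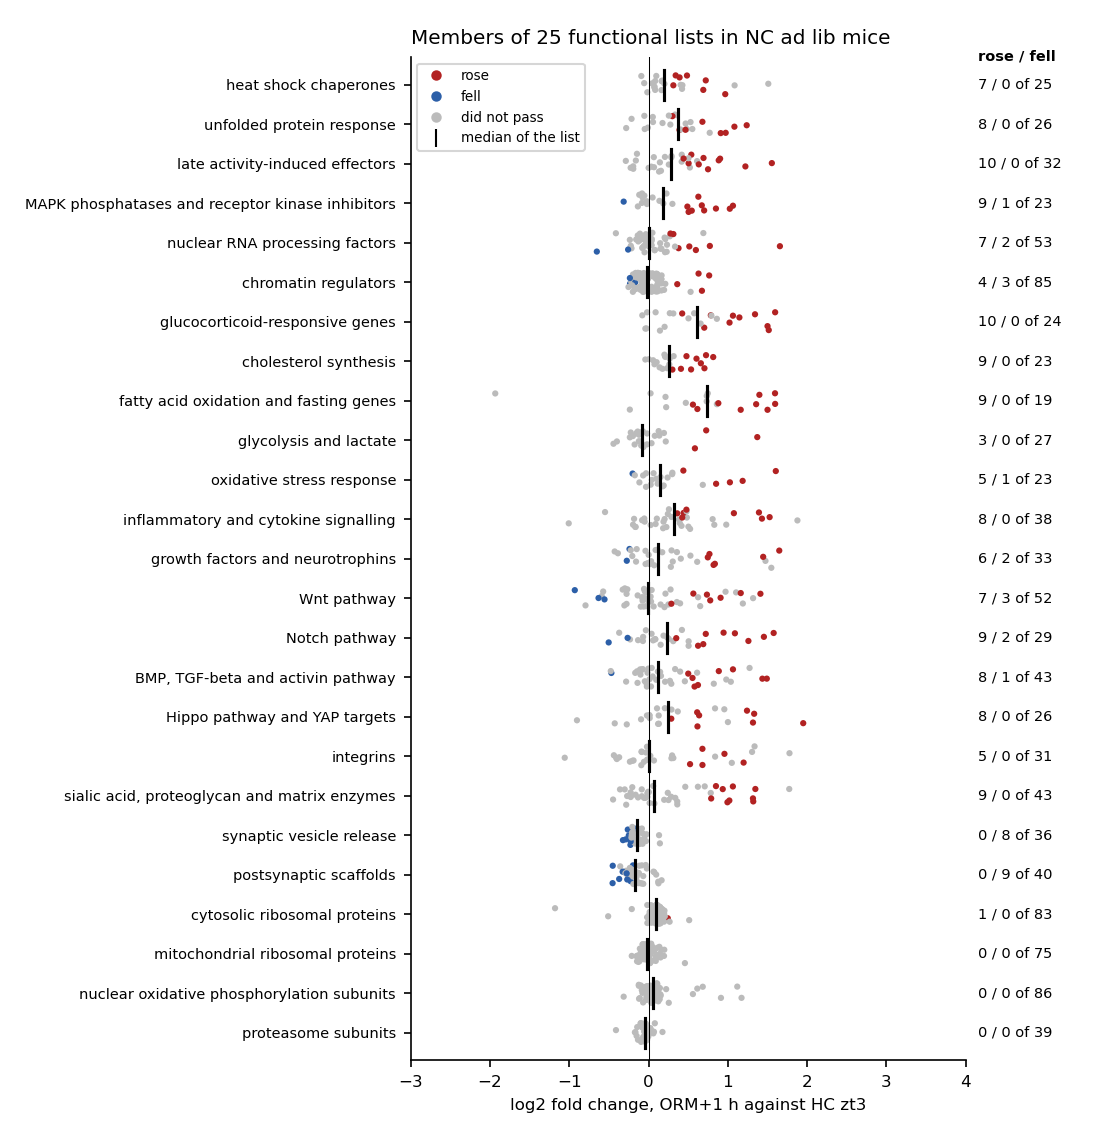
Log2 fold change of each member of 25 functional lists (horizontal axis), one point per gene, in red where it rose, in blue where it fell and in grey where it did not pass. The bar is the list's median, and the counts at the right give 7 of 25 heat shock chaperones that rose and 9 of 40 postsynaptic scaffold genes that fell.

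Of 53 nuclear RNA processing factors 7 rose (13.2%, against 4.03% of all genes) and 2 fell (3.77%, against 1.70%), and the median log2 fold change was 0.01. Rsrp1 (ENSMUSG00000037266, chromosome 4 from 134650860 to 134654982), an arginine and serine rich protein, had 38.6, 64.7 and 95.1 CPM at HC zt3 and 165, 193 and 245 CPM at ORM+1 h. The log2 fold change of the gene was 1.66 ± 0.20 (SE, adjusted p = 1.5e-08), and the groups did not overlap. Srsf5 (ENSMUSG00000021134, chromosome 12 from 80986436 to 80997630), a splicing factor of the SR family, went the other way, with 132, 160.1 and 177 CPM at HC zt3 and 66.6, 109 and 125 CPM at ORM+1 h and a log2 fold change of -0.65 ± 0.15 (SE, adjusted p = 0.0017). The kinase of SR proteins Clk1 (0.77) and the splicing factors Srsf10 (0.60), Tra2a (0.51) and Srsf7 (0.38) rose, and Rbfox3, the neuronal splicing factor known as NeuN, fell by 0.26. With the covariate 5 rose and 2 fell, the latter Srsf5 (-0.75, adjusted p = 0.016) and the cold-induced RNA-binding protein Rbm3 (-0.74, adjusted p = 0.044). Cirbp, the other cold-induced RNA-binding protein, had 55.6, 63.9 and 82.2 CPM at HC zt3 and 38.5, 48.6 and 62.6 CPM at ORM+1 h. Its groups overlapped, and its log2 fold change was -0.41 ± 0.15 (SE, adjusted p = 0.087) and with the covariate -0.81 (adjusted p = 0.002). Without ORM+1 h replicate 6, 4 of the 7 RNA processing factors that rose passed. Fits that lacked 1 of the 12 mice lost the call as often as given here (largest adjusted p in brackets) for Srsf7 in 1 (0.087 when ORM+1 h replicate 6 was left out) and Rbfox3 in 2 (0.077 when HC zt3 replicate 4 was left out).

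Of 85 chromatin regulators 4 rose (4.71%, against 4.03% of all genes) and 3 fell (3.53%, against 1.70%). The share that rose was near that of all genes, and of the 17601 protein-coding genes 451 fell. Kdm7a had 31.5, 33.2 and 37.5 CPM at HC zt3 and 44, 56.7 and 70.2 CPM at ORM+1 h, a log2 fold change of 0.76 ± 0.13 (SE, adjusted p = 4.1e-05). Kdm6b, which removes methyl groups from lysine 27 of histone H3, had 33, 35.6 and 37.6 CPM at HC zt3 and 50.8, 56.4 and 63.5 CPM at ORM+1 h, a log2 fold change of 0.67 ± 0.11 (SE, adjusted p = 1.0e-05). The groups of both demethylases were apart, and both rose with the covariate (1.06 and 0.67). Smarcd1, a subunit of the BAF remodelling complex, fell by 0.24 (adjusted p = 0.0015), and the deacetylase Hdac11 by 0.17 (adjusted p = 0.021). Without ORM+1 h replicate 3 or replicate 4, only 1 chromatin regulator fell. Of 32 Mediator subunits Med7 (0.51) and Med12 (0.48) rose (6.25%). Among 363 zinc finger genes named Zfp, 11 rose (3.03%, against 4.03% of all genes) and 10 fell (2.75%, against 1.70%). Zfp516 (0.72) and Zfp703 (0.40) were among the first and Zfp821 (-0.37) and Zfp941 (-0.69) among the second. The 10 that fell were 6 without ORM+1 h replicate 2, 5 without replicate 4 and 18 without replicate 5. Of 58 Sox and Fox factors 8 rose (13.8%), among them Sox21 (1.52) and Foxo4 (0.55), and 3 fell (5.17%), among them Foxp4 (-0.35) and Sox12 (-0.34). With the covariate none rose and Sox12 fell (-0.40, adjusted p = 0.036). Among 26 Klf and Sp factors Klf15 (0.79) and Klf4 (1.48) rose (7.69%) and Klf13 fell by 0.23 (3.85% of the list). With 1 mouse left out at a time, the call was lost in the given number of the 12 fits (largest adjusted p in brackets) for Hdac11 in 3 (0.079 when ORM+1 h replicate 4 was left out), Med12 in 2 (0.061 when ORM+1 h replicate 1 was left out) and Klf13 in 2 (0.061 when HC zt3 replicate 3 was left out).

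Several genes of sterol synthesis rose. Of 23 genes of cholesterol synthesis 9 rose (39.1%) and none fell, with a median log2 fold change of 0.26. Cyp51 (ENSMUSG00000001467, chromosome 5 from 4123416 to 4154751), which removes the methyl group at carbon 14 of lanosterol, had 25.5, 27.5 and 34.4 CPM at HC zt3 and 42.3, 53 and 56.6 CPM at ORM+1 h. Its log2 fold change was 0.82 ± 0.10 (SE, adjusted p = 3.0e-08). Msmo1, a sterol monooxygenase of the same route, had 27.9, 31.2 and 36 CPM at HC zt3 and 45.7, 54.5 and 57 CPM at ORM+1 h, a log2 fold change of 0.72 ± 0.11 (SE, adjusted p = 4.0e-06). Every trained mouse was above every home cage mouse in both. Idi1 (0.70) and Sc5d (0.60) of the same route and the ER regulator Insig1 (0.48) rose as well. With the covariate 3 of the 23 rose, among them Cyp51 (0.54) and Msmo1 (0.45).

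Several genes of fat use and fasting rose in the model without the covariate. Of 19 such genes 9 rose (47.4%) and none fell, and the median log2 fold change was 0.73. Without the 3 trained mice high in choroid plexus markers 3 of the 19 rose, where 2.09% of all genes did. Pdk4, the kinase that holds back pyruvate oxidation, had 2.72, 4.06 and 6.35 CPM at HC zt3 and 8.65, 12 and 16.1 CPM at ORM+1 h, a log2 fold change of 1.5 ± 0.30 (SE, adjusted p = 3.9e-04). Plin2, a coat protein of lipid droplets, had 1.81, 2.55 and 3.77 CPM at HC zt3 and 5.07, 6.83 and 8.66 CPM at ORM+1 h, a log2 fold change of 1.4 ± 0.29 (SE, adjusted p = 6.7e-04). The groups were apart in both genes. The fatty acid receptor Ppara (1.6), the secreted lipase inhibitor Angptl4 (1.6) and the carnitine transferase Cpt1a (1.16) rose too, but not without these 3 mice, when they had 1.29 (adjusted p = 0.11), 1.43 (adjusted p = 0.1) and 0.69 (adjusted p = 0.57). With the covariate none of the 19 passed and the median was 0.21. The correlation with the astrocyte marker level in the 59 other mice was 0.66 for Pdk4 and 0.43 for Plin2. Of 27 genes of glycolysis and lactate 3 rose (11.1%), namely Aldoc (1.37), which is also an astrocyte marker, the lactate carrier Slc16a1 (0.58) and the glucose carrier Slc2a1 (0.73), and with the covariate none did. Leaving out single mice cost the call in the given number of 12 fits (largest adjusted p in brackets) for Cpt1a in 7 (0.18 when ORM+1 h replicate 1 was left out).

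Of 24 genes known to respond to glucocorticoids 10 rose (41.7%), none fell, and the median log2 fold change was 0.62. Tsc22d3, the glucocorticoid-induced leucine zipper, had 43.6, 49.9 and 52.3 CPM at HC zt3 and 64.8, 80.6 and 92.2 CPM at ORM+1 h, a log2 fold change of 0.70 ± 0.12 (SE, adjusted p = 5.6e-05). Mt1 and Mt2, the metal-binding metallothioneins, had log2 fold changes of 1.15 ± 0.21 (SE, adjusted p = 9.2e-05) and 1.34 ± 0.26 (SE, adjusted p = 2.0e-04). The groups were apart in all 3. Fkbp5, the co-chaperone of the glucocorticoid receptor, had 102, 107 and 119 CPM at HC zt3 and 80.4, 106 and 121 CPM at ORM+1 h. The log2 fold change of the gene was -0.079 ± 0.085 (SE, adjusted p = 0.71). The kinase Sgk1 had 73.6, 81.8 and 89.2 CPM at HC zt3 and 82, 87.2 and 149 CPM at ORM+1 h, a log2 fold change of 0.31 ± 0.15 (SE, adjusted p = 0.23), and the groups of both overlapped. With the covariate 3 of the 24 rose, namely Errfi1, Per1 (1.04) and Bcl6. Errfi1 is also counted with the receptor kinase inhibitors and Per1 with the core clock. Tsc22d3 then had 0.34 (adjusted p = 0.24), and Mt1 and Mt2 had 0.13 and 0.047 and did not pass. Of the 23 oxidative stress genes 5 rose (21.7%) and 1 fell, among them the cystine carrier Slc7a11 (1.6) and the peroxidase Prdx6 (1.03), and Keap1, the inhibitor of NRF2, fell by 0.20 while Nfe2l2, which encodes NRF2, rose by 1.19. None of these passed with the covariate.

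**Figure D4:**
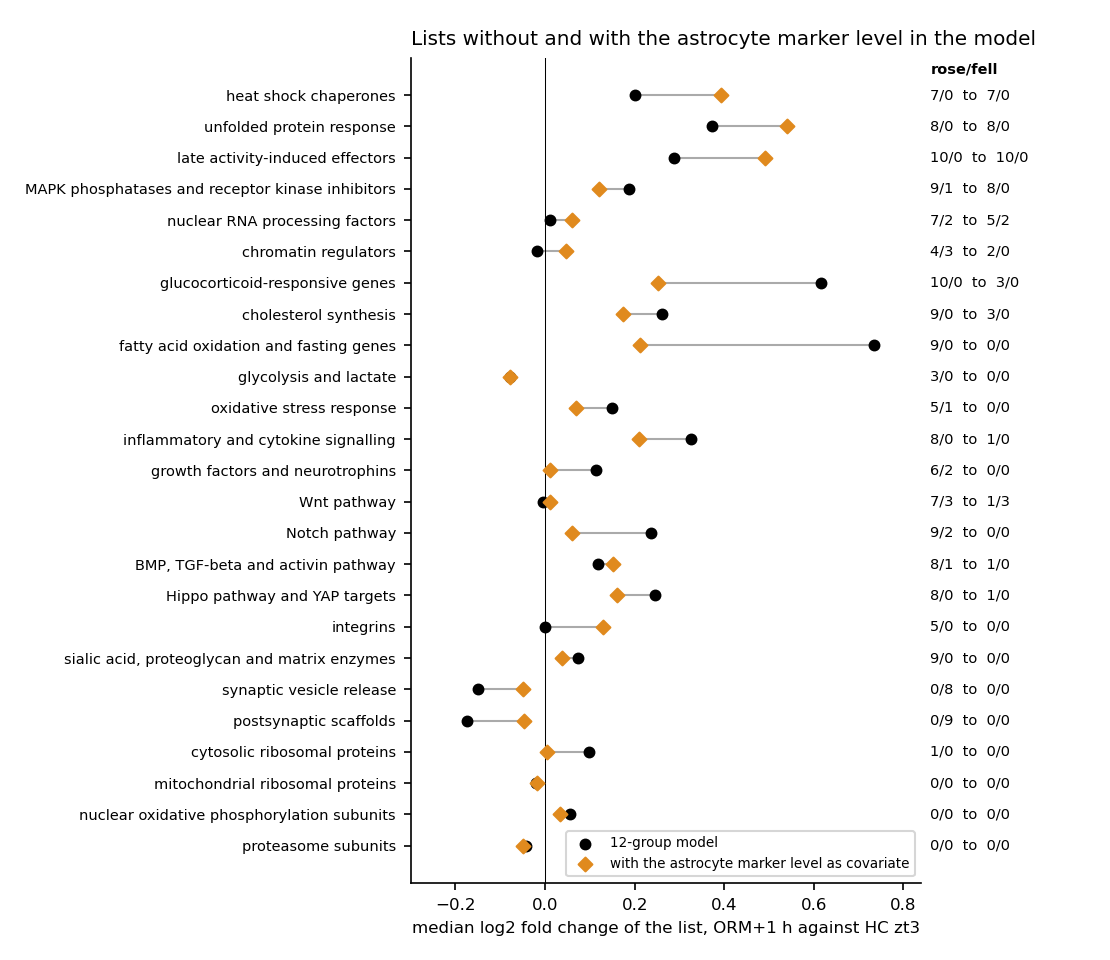
Median log2 fold change of 25 functional lists in the model of 12 groups (black) and with the astrocyte marker level as covariate (orange), with the members that rose and fell in each at the right. The medians of heat shock chaperones, the unfolded protein response and activity effectors were higher with the covariate, and that of fatty acid and fasting genes moved from 0.73 to 0.21.

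Some synaptic genes fell by small amounts. Of 36 genes of synaptic vesicle release 8 fell (22.2%, against 1.70% of all genes) and none rose, with a median log2 fold change of -0.15, and of 40 postsynaptic scaffold genes 9 fell (22.5%) and none rose, with a median of -0.17. Camk2a, the alpha subunit of the calcium and calmodulin dependent kinase, had 4303, 4853 and 5858 CPM at HC zt3 and 3081, 3603 and 4182 CPM at ORM+1 h. Its log2 fold change was -0.45 ± 0.10 (SE, adjusted p = 8.9e-04). The highest trained mouse was under the lowest home cage mouse. Unc13a, which primes vesicles for release, had 165, 195 and 228 CPM at HC zt3 and 139, 158 and 179 CPM at ORM+1 h, a log2 fold change of -0.32 ± 0.087 (SE, adjusted p = 0.013). Cplx2, a complexin of the release machinery, had 3211, 3334 and 3845 CPM at HC zt3 and 2583, 2821 and 3273 CPM at ORM+1 h, a log2 fold change of -0.26 ± 0.068 (SE, adjusted p = 0.009). The groups overlapped in both of these. Dlgap3 (-0.45) and Iqsec2 (-0.37) of the postsynaptic density and Syn2 (-0.24) and Syn1 (-0.23) of the release site fell as well. With the covariate no member of either list passed, and the medians were -0.05 and -0.05. The count of 9 was 2 without HC zt3 replicate 3 or replicate 4 and 4 without ORM+1 h replicate 4. The count of 8 was 5, 3 and 4 without HC zt3 replicates 2, 3 and 4 and 4, 2 and 5 without ORM+1 h replicates 3, 4 and 6. Fits that lacked 1 of the 12 mice lost the call as often as given here (largest adjusted p in brackets) for Unc13a in 1 (0.067 when HC zt3 replicate 4 was left out), Cplx2 in 1 (0.0504 when HC zt3 replicate 3 was left out), Dlgap3 in 2 (0.077 when HC zt3 replicate 3 was left out), Iqsec2 in 3 (0.089 when ORM+1 h replicate 4 was left out), Syn2 in 1 (0.063 when ORM+1 h replicate 4 was left out) and Syn1 in 7 (0.14 when ORM+1 h replicate 4 was left out).

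Among receptors for transmitters few genes passed. Of 18 ionotropic glutamate receptor genes Grin2c (1.32) rose (5.56%), and of 17 GABA receptor genes Gabrg1 (1.25) rose (5.88%), against 4.03% of all genes. Neither share was above that of protein-coding genes, of which 1143 of 17601 rose. Grm3, the metabotropic receptor of glia, had 6.64, 7.52 and 8.79 CPM at HC zt3 and 14, 19.4 and 30.1 CPM at ORM+1 h, a log2 fold change of 1.48 ± 0.26 (SE, adjusted p = 4.5e-05). The groups did not overlap. With the covariate these 3 had log2 fold changes of -0.14, 0.052 and 0.09. Of 40 receptors for monoamines and acetylcholine 3 rose (7.50%), among them Adra1a (0.90) and Htr1b (0.61). Htr1b, an inhibitory serotonin receptor, had 4.45, 6.72 and 10.9 CPM at HC zt3 and 8.51, 10.7 and 12.6 CPM at ORM+1 h, with overlapping groups, and it passed with the covariate (0.84, adjusted p = 0.012). Of 40 voltage-gated potassium channel genes Kcns1 fell, a modifier of Kv2 channels, with 11.3, 12.6 and 14.9 CPM at HC zt3 and 6.79, 8.66 and 10.1 CPM at ORM+1 h and a log2 fold change of -0.56 ± 0.12 (SE, adjusted p = 0.0015). The potassium channels of glia Kcnj10 (1.22) and Kcnj16 (1.63) rose without the covariate and had -0.035 and -0.19 with it. Kcnk15 is listed as having fallen, but was at most 0.170 CPM in any of the 12 mice, and the value rests on almost no counts. Of 40 voltage-gated sodium and calcium channel genes Cacng6 fell by 0.62 (adjusted p = 0.048). In this list, as in that of voltage-gated potassium channels, 2.50% fell, against 1.70% of all genes. That was not above the share of protein-coding genes, of which 451 of 17601 fell. With 1 mouse left out at a time, the call was lost in the given number of the 12 fits (largest adjusted p in brackets) for Kcnk15 in 6 (0.057 when ORM+1 h replicate 4 was left out) and Cacng6 in 10 (0.17 when HC zt3 replicate 4 was left out).

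Developmental signalling pathways held members that rose and, except for the Hippo pathway, members that fell, where 4.03% of all genes rose and 1.70% fell. Of 52 Wnt pathway genes 7 rose (13.5%) and 3 fell (5.77%), and of 29 Notch pathway genes 9 rose (31.0%) and 2 fell (6.90%). Of 43 genes of the BMP, TGF-beta and activin pathways 8 rose (18.6%) and 1 fell (2.33%), and of 26 Hippo pathway genes 8 rose (30.8%) and none fell. Fzd9, a Wnt receptor, had 0.984, 1.24 and 1.35 CPM at HC zt3 and 2.07, 2.72 and 3.24 CPM at ORM+1 h, a log2 fold change of 1.16 ± 0.25 (SE, adjusted p = 0.0011), and Fzd1 had one of 0.74 ± 0.14 (SE, adjusted p = 1.3e-04). The 3 Wnt genes that fell were Frat1, Dact2 and the ligand Wnt9a (-0.93), and all 3 fell with the covariate too. The ligand Wnt2 rose in both models and was the 1 that rose with the covariate (0.69). Lfng, which glycosylates Notch receptors, had 0.954, 1.74 and 2.38 CPM at HC zt3 and 3.85, 5.20 and 6.93 CPM at ORM+1 h, a log2 fold change of 1.58 ± 0.30 (SE, adjusted p = 2.2e-04). Nrarp, a Notch target that limits the pathway, had one of 1.26 ± 0.26 (SE, adjusted p = 5.7e-04). Rfng, of the same family as Lfng, and the ligand Dll1 fell by 0.26 and 0.50. No Notch gene passed with the covariate. The count of 9 Notch genes fell to 5 when HC zt3 replicate 2 or ORM+1 h replicate 2 was left out and to 4 when ORM+1 h replicate 1 was. Leaving out single mice cost the call in the given number of 12 fits (largest adjusted p in brackets) for Wnt2 in 2 (0.079 when HC zt3 replicate 2 was left out), Rfng in 9 (0.11 when HC zt3 replicate 3 was left out) and Dll1 in 5 (0.13 when HC zt3 replicate 4 was left out).

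Bmpr1b, a BMP receptor, had 3.09, 3.66 and 4.04 CPM at HC zt3 and 7.39, 9.38 and 14.3 CPM at ORM+1 h, a log2 fold change of 1.49 ± 0.23 (SE, adjusted p = 7.3e-06), and Smad5, which carries its signal, had one of 0.58 ± 0.10 (SE, adjusted p = 6.1e-05). The inhibin subunit Inha fell by 0.47 (adjusted p = 0.028). With the covariate the BMP antagonist Grem1 (1.28, adjusted p = 0.0018) was the 1 gene of its list that passed. Wwtr1, the Hippo effector TAZ, had 4.34, 4.76 and 8.05 CPM at HC zt3 and 11, 13.6 and 15.4 CPM at ORM+1 h, a log2 fold change of 1.33 ± 0.19 (SE, adjusted p = 9.8e-07). Frmd6, an upstream Hippo regulator, had 14, 15.1 and 16.4 CPM at HC zt3 and 21.3, 23.2 and 25.7 CPM at ORM+1 h, a log2 fold change of 0.62 ± 0.11 (SE, adjusted p = 5.6e-05). The groups were apart in both, and with the covariate Frmd6 passed (0.77, adjusted p = 1.4e-04) and Wwtr1 did not (0.47, adjusted p = 0.064). The 8 BMP, TGF-beta and activin genes that rose were 5 without HC zt3 replicate 4. Of 33 growth factors 6 rose (18.2%), among them Mdk (1.65), Fgf1 (0.77), Vegfa (0.82) and Hbegf (0.84), and the intracellular fibroblast growth factor homologues Fgf13 (-0.24) and Fgf14 (-0.27) fell. None passed with the covariate. Fits that lacked 1 of the 12 mice lost the call as often as given here (largest adjusted p in brackets) for Inha in 4 (0.13 when ORM+1 h replicate 2 was left out), Fgf13 in 6 (0.12 when HC zt3 replicate 3 was left out) and Fgf14 in 9 (0.16 when HC zt3 replicate 3 was left out).

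Of the lists of matrix, adhesion and immune genes some lay near the share of all genes that rose, 4.03%. Of 43 genes of proteoglycans and matrix enzymes 9 rose (20.9%) and none fell, among them Sparc (1.32), a matrix glycoprotein, and Hapln1 (0.94), which links hyaluronan to proteoglycans. Of 31 integrins 5 rose (16.1%), among them Itgb8 (0.96) and Itgav (0.68), and of 55 collagens and laminins Lamb2 (1.15) and Col11a2 (0.86) rose (3.64%) and Col22a1 (-0.67) fell (1.82%). The 5 integrins were 3 without HC zt3 replicate 3, ORM+1 h replicate 1 or ORM+1 h replicate 3. Of 38 inflammatory and cytokine genes 8 rose (21.1%), among them Cxcl14 (1.39), Il6st (0.48), the shared receptor of the interleukin 6 family, and Stat3 (0.36), and 4 rose without ORM+1 h replicate 1 and 3 without the 3 mice high in choroid plexus markers. Of 31 interferon and MHC class I genes H2-K1 (0.91) and Irf9 (0.69) rose (6.45%), and none did without these 3 mice. With the covariate the prostaglandin synthase Ptgs2 (0.61, adjusted p = 0.04), which is also induced by activity, was the 1 gene of these 5 lists that passed. It rose without the covariate too. Of 65 axon guidance genes 3 rose (4.62%), among them Plxnb1 (1.18) and Sema6d (0.38), and Sema7a (-0.28) and Dcc (-0.31) fell (3.08%). Of 58 clustered protocadherins Pcdhgc3 (0.90) rose (1.72%). With 1 mouse left out at a time, the call was lost in the given number of the 12 fits (largest adjusted p in brackets) for Col11a2 in 1 (0.088 when ORM+1 h replicate 2 was left out), Col22a1 in 8 (0.13 when ORM+1 h replicate 2 was left out), H2-K1 in 1 (0.061 when ORM+1 h replicate 1 was left out), Irf9 in 5 (0.12 when HC zt3 replicate 4 was left out), Ptgs2 in 8 (0.11 when ORM+1 h replicate 2 was left out), Sema7a in 3 (0.1 when HC zt3 replicate 4 was left out) and Dcc in 8 (0.12 when HC zt3 replicate 2 was left out).

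Few genes of translation and energy supply passed. Of 75 mitochondrial ribosomal proteins, 86 nuclear subunits of oxidative phosphorylation, 13 mitochondrially encoded subunits and 39 proteasome subunits none passed, with medians of -0.02, 0.06, 0.42 and -0.04. Of 83 cytosolic ribosomal proteins Rpl10 rose (log2 fold change 0.24 ± 0.069 SE, adjusted p = 0.02), and the list's median was 0.10. Of 72 initiation and elongation factors Eif4e3 (0.32) and Eif4g2 (0.24) rose (2.78%). Wars1 (-0.22) was the 1 of 20 aminoacyl-tRNA synthetases to fall (5.00%). Of 25 tubulins, neurofilaments and related proteins 2 rose, Tubb2b (0.53) and the tubulin complex component Tubgcp4 (0.28), and 4 fell, among them Tubg2 (-0.38) and Tubgcp2 (-0.27). The 4 were 2 without HC zt3 replicate 2 or ORM+1 h replicate 3, 1 when ORM+1 h replicate 4 was left out and 8 when its replicate 5 was. Among 51 kinesins and dyneins Kif1c (0.68) rose and Dync1i1 (-0.23) and Kif3c (-0.17) fell, and of 25 V-ATPase subunits Atp6v0a2 (0.49) and Atp6v0e (1.06) rose. Of 32 neuropeptides and granins Scg3 (0.89) and Cpe (0.31), both of secretory granules, rose (6.25%). Of 89 orphan and adhesion receptors 4 rose (4.49%) and 2 fell (2.25%), shares near those of all genes. Among them were Adgrg1 (0.74), Gpr19 (0.56), Gpr12 (-0.39) and Gpr62 (-0.48). Leaving out single mice cost the call in the given number of 12 fits (largest adjusted p in brackets) for Rpl10 in 3 (0.16 when ORM+1 h replicate 6 was left out), Eif4e3 in 3 (0.075 when ORM+1 h replicate 6 was left out), Eif4g2 in 8 (0.16 when ORM+1 h replicate 4 was left out), Wars1 in 5 (0.12 when ORM+1 h replicate 4 was left out), Tubb2b in 1 (0.051 when ORM+1 h replicate 2 was left out), Tubgcp4 in 8 (0.11 when ORM+1 h replicate 6 was left out), Tubgcp2 in 1 (0.069 when ORM+1 h replicate 4 was left out), Dync1i1 in 2 (0.096 when ORM+1 h replicate 4 was left out), Kif3c in 8 (0.096 when HC zt3 replicate 3 was left out), Atp6v0e in 8 (0.12 when ORM+1 h replicate 6 was left out) and Cpe in 7 (0.12 when ORM+1 h replicate 2 was left out).

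Markers of the hippocampal neurons were present in every mouse, and few passed the test. The summed level of the 10 pan-excitatory markers was 15484 to 18731 CPM in home cage mice and 13201 to 15851 CPM in trained mice, which overlapped. Camk2a was the 1 of these 10 that fell. Of 12 markers of dentate granule neurons Trpc6 fell (log2 fold change -0.66 ± 0.18 SE, adjusted p = 0.012), and Calb1, the calcium buffer calbindin, had 155, 171 and 187 CPM at HC zt3 and 144, 159 and 195 CPM at ORM+1 h. No marker of CA1 (10 markers) or of CA2 and CA3 (12 markers) pyramidal neurons passed, and with the covariate the CA1 marker Gpr161 rose by 0.70. Rgs14, a CA2 regulator of G protein signalling, had 371, 396 and 441 CPM at HC zt3 and 294, 331 and 362 CPM at ORM+1 h. The groups were apart, but the log2 fold change of -0.27 ± 0.088 (SE, adjusted p = 0.056) did not pass. Of 23 interneuron markers 1 rose (4.35%, near the 4.03% of all genes). None did with the covariate or when HC zt3 replicate 3 or 5 or ORM+1 h replicate 1, 2 or 3 was left out. Gad1, the GABA-synthesizing enzyme, had 322, 392 and 419 CPM at HC zt3 and 259.7, 353 and 382 CPM at ORM+1 h.

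Of the glial markers other than those of astrocytes few passed. None of 20 markers of myelinating oligodendrocytes passed (median log2 fold change -0.04), and Mbp, myelin basic protein, had 321, 354 and 419 CPM at HC zt3 and 297, 338 and 428 CPM at ORM+1 h. Of 18 markers of oligodendrocyte precursors Ptprz1 (1.06) and Cspg5 (0.80) rose (11.1%, against 4.03% of all genes), and they had -0.025 and -0.10 with the covariate. Of 15 markers of neural stem cells and newborn neurons Thbs4 (1.94), Hopx (1.07) and Sox11 (0.59) rose and none did with the covariate, while Neurod1 of newborn neurons had 12.8, 14.6 and 17.5 CPM at HC zt3 and 11.4, 15 and 17.3 CPM at ORM+1 h. None of the 19 markers of microglia passed, and Csf1r, the receptor of colony stimulating factor 1, had 17.7, 20.8 and 21.7 CPM at HC zt3 and 16.4, 17 and 18.8 CPM at ORM+1 h. Their mean log2 CPM was 2.12 to 2.27 in home cage mice and 1.79 to 2.09 in trained mice, so that no trained mouse reached the home cage range, and their median log2 fold change was -0.24 and with the covariate 0.03.

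**Figure D5:**
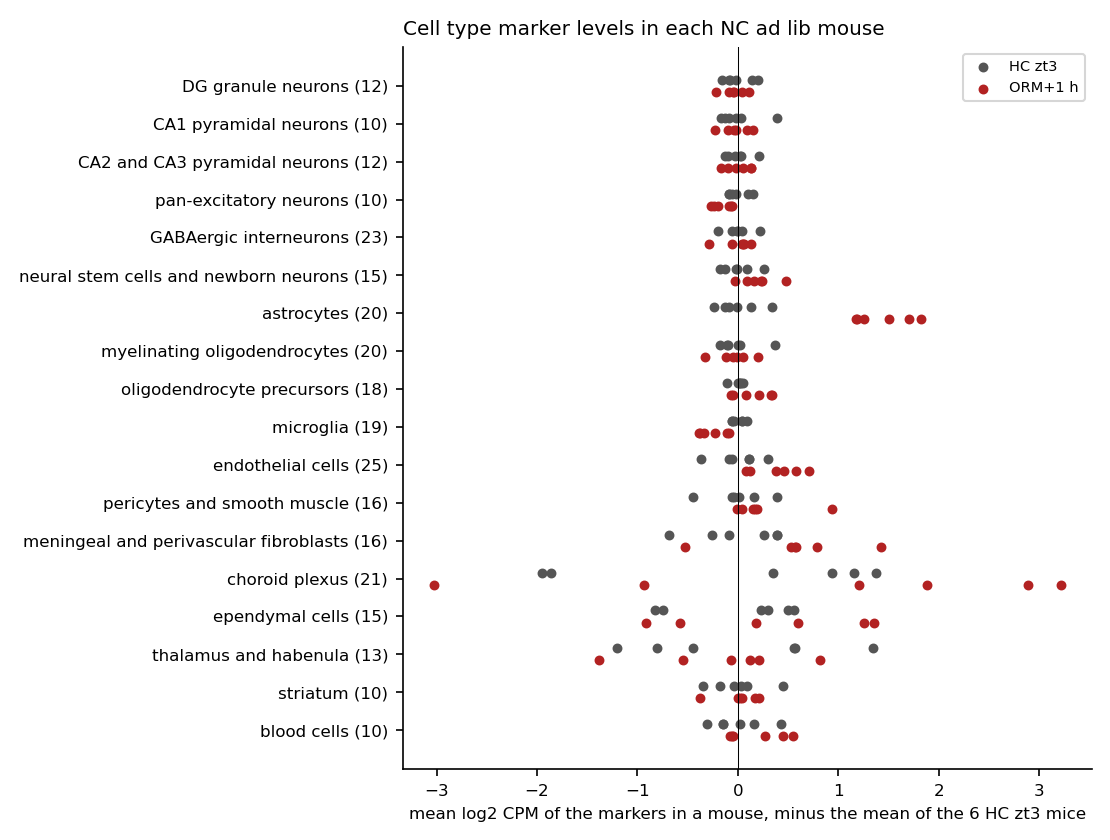
Mean log2 CPM over the markers of 18 cell types or regions in each mouse (number of markers in brackets), less the mean of the 6 HC zt3 mice, with home cage mice in grey and trained mice in red. The groups were apart for astrocytes and microglia, and choroid plexus markers spread over the widest range in both groups.

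Markers of vessels and of ventricular tissue differed widely between mice of 1 group. Of 25 endothelial markers Mfsd2a (1.07), the lipid carrier of the blood-brain barrier, and Slc16a1 rose, and of 16 markers of pericytes and smooth muscle Pdgfrb (1.14) and Myl9 (0.81). Mfsd2a had 3.69, 4.63 and 5.03 CPM at HC zt3 and 6.86, 9.72 and 12.9 CPM at ORM+1 h, without overlap of the groups. With the covariate none of the 41 passed, and Mfsd2a had 0.25 (adjusted p = 0.64). Of 16 fibroblast markers Bgn (0.83), the proteoglycan biglycan, rose (6.25%). None of 21 choroid plexus, 15 ependymal, 13 thalamic and habenular and 10 blood markers passed, and of 10 striatal markers Rgs9 fell (log2 fold change -0.38 ± 0.12 SE, adjusted p = 0.035). Fits that lacked 1 of the 12 mice lost the call as often as given here (largest adjusted p in brackets) for Myl9 in 6 (0.11 when HC zt3 replicate 4 was left out) and Rgs9 in 8 (0.11 when ORM+1 h replicate 2 was left out).

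Choroid plexus markers summed to 336 to 4332 CPM in home cage mice and to 161 to 17078 CPM in trained mice, with a median log2 fold change of 1.47. Ttr, the thyroxine carrier of the plexus, had 152, 1704 and 2688 CPM at HC zt3 and 61.5, 3536 and 11107 CPM at ORM+1 h. ORM+1 h replicates 1, 4 and 6 had the highest summed levels and ORM+1 h replicate 5 the lowest of all 12 mice. Ependymal markers summed to 23.7 to 74.5 CPM and to 20.5 to 173.5 CPM, and thalamic and habenular markers to 150.7 to 406.6 CPM and to 144.1 to 252.1 CPM, in home cage and trained mice. With the choroid plexus marker level as a covariate 1316 genes rose (4.37%). Then 10 heat shock chaperones and 10 members of the unfolded protein response rose, and the same number of vesicle release genes fell as without it, 8. With the 3 trained mice highest in these markers left out, 9 mice remained. Of all 30141 genes 629 then rose (2.09%), against 1215 before, and 77 fell, against 512. In that fit 2 Notch, 3 Wnt, 3 Hippo, 3 RNA processing, 3 zinc finger Zfp, 4 core clock, 7 cholesterol and 9 glucocorticoid-responsive genes rose. No vesicle release or scaffold gene fell in it. Fewer trained mice and the loss of the mice high in these markers cannot be told apart in that fit. The part of the plexus in these results was not tested.

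By their medians, which were not tested, the genes that rose and those that fell were longer than all genes tested. Those that fell were also richer in G and C. The median exonic length was 6480 bases for the 1143 protein-coding genes that rose, 6122 for the 451 that fell and 5608 for all 17601, and the median GC content 49.5%, 55.3% and 50.4%. Of the 1215 genes that rose 1143 were protein-coding, and of the 512 that fell 451. Of 6083 long noncoding RNAs 47 rose and 51 fell, shares below the 4.03% and 1.70% of all genes. Whether low counts kept these RNAs from passing was not tested.

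The same change was measured in mice on the HFS diet, 6 trained against 6 home cage mice fed ad lib and the same number fed in a restricted time window (TRF). No gene differed from NC ad lib mice in its change at an adjusted p under 0.05 in edgeR or in the DESeq2 Wald test of the same term. At an unadjusted p under 0.05 edgeR gave 1884 genes for HFS ad lib and 1578 for HFS TRF, and DESeq2 1011 and 715. With no difference at all about 5% of the 30141 genes tested would pass this threshold. The edgeR counts lay above that share and the DESeq2 counts below it. With 6 mice per group such counts do not show whether the change differed between diets. With the change on chow first, then on HFS fed ad lib and in TRF, the log2 values were 0.97, 0.83 and 0.90 for Dnajb1, 0.91, 0.75 and 0.72 for Hspa5 and 0.88, 1.04 and 0.99 for Homer1. They were 0.82, 0.59 and 0.62 for Cyp51 and -0.65, -0.63 and -0.76 for Srsf5. Values lay further apart for other genes, among them Pdk4 (1.5, 0.63 and 0.84) and Camk2a (-0.45, -0.17 and -0.25), with no difference past the threshold. How many genes did so was not counted.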

How the data were processed

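Hippocampal pS6-TRAP mRNA of 71 male mice in 12 groups was sequenced from stranded libraries, and 12 mice are compared here. The authors trimmed reads with Trim Galore 0.6.7 and cutadapt 3.4, aligned them with HISAT2 2.2.0 and counted them per gene with featureCounts of Subread 2.0.3. The submitters' processing notes name GRCm39 and also mm9. The deposited table holds these raw counts for 57010 genes. Of its gene IDs 56310 matched GENCODE vM39, which gave symbols and positions.

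The 30141 genes with at least 10 counts over all mice were fitted in edgeR 4.0.16 (R 4.3.3, limma 3.58.1) with TMM normalization and the quasi-likelihood test, with 1 mean for each of the 12 groups and no covariate. The study's methods name DESeq2 (here 1.42.0), which was run as an alternative. P-values were adjusted by the Benjamini-Hochberg method at 0.05. The SE given is the absolute log2 fold change divided by the square root of the F of the quasi-likelihood test. It follows from that test and is no separate measure of spread. The script was checked on simulated counts. Marker levels are means of log2 CPM (prior count 2). Promoters were cut from GRCm39 at GENCODE starts. Alternatives were other filters, size factors, subsets of genes and mice, a block for the replicate number and each mouse left out in turn, and, added after seeing the data, marker levels as covariates and leaving out 3 trained mice. The sample titles give each library a replicate number and name no animal, and each library is taken here as a separate mouse. No 2 libraries of a group agreed within sampling noise, which does not by itself show separate mice.

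The genes and lists were chosen with earlier results of these data known. The rule for named genes took 10 rising and 10 falling genes of smallest p outside the astrocyte, immediate early and clock lists, up to 2 genes in each direction of each list, or the 1 with the smallest p where none passed, 3 abundant markers of each cell type and Egr4, Fos and Gja1. Not all genes so taken are described. Further members beside a list's count were chosen after their values were seen. A few members of the lists, though counted, are not reported here by name.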

Additional observations from a re-analysis of the deposited data

Results flagged for a closer look

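Each group of 6 mice was looked at for 1 mouse far from its group in 209 genes chosen by the rule or after their values were seen, not all of which the text describes, by the gap of the highest or lowest mouse to the next over the range of the group (Dixon's ratio above its 95% critical value). In 16 of 418 groups 1 mouse stood apart, where chance alone gives about 5%.

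In home cage mice, Arl5b had 17.6 CPM in HC zt3 replicate 1, against 21.1 to 23.1 CPM in the other 5 mice. Bdnf had 84.9 CPM in HC zt3 replicate 4, against 64 to 71.3 CPM in the other 5 mice. Col22a1 had 1.99 CPM in HC zt3 replicate 2, against 3.34 to 3.98 CPM in the other 5 mice. Dusp5 had 52.2 CPM in HC zt3 replicate 2, against 33.3 to 39.3 CPM in the other 5 mice. Errfi1 had 71.9 CPM in HC zt3 replicate 2, against 49.2 to 56.7 CPM in the other 5 mice. Gja1 had 35.9 CPM in HC zt3 replicate 6, against 24.1 to 27 CPM in the other 5 mice. Grin2c had 13.9 CPM in HC zt3 replicate 6, against 7.58 to 9.66 CPM in the other 5 mice. Med12 had 5.29 CPM in HC zt3 replicate 3, against 6.99 to 7.84 CPM in the other 5 mice. Nfkbil1 had 17.2 CPM in HC zt3 replicate 3, against 14.3 to 15.2 CPM in the other 5 mice. Per1 had 93.8 CPM in HC zt3 replicate 2, against 67 to 76.4 CPM in the other 5 mice. Sox11 had 5.82 CPM in HC zt3 replicate 4, against 8.62 to 9.09 CPM in the other 5 mice. Sox12 had 15.4 CPM in HC zt3 replicate 2, against 18.2 to 18.8 CPM in the other 5 mice. Wwtr1 had 8.05 CPM in HC zt3 replicate 6, against 4.34 to 5.6 CPM in the other 5 mice.

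In trained mice, Frat1 had 26.6 CPM in ORM+1 h replicate 5, against 20.3 to 22.6 CPM in the other 5 mice. Smarcd1 had 174 CPM in ORM+1 h replicate 5, against 150 to 156 CPM in the other 5 mice. Tubgcp2 had 27.9 CPM in ORM+1 h replicate 4, against 34.2 to 37.7 CPM in the other 5 mice.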

How the results depend on the processing

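Against 1727 genes that changed, 1215 higher and 512 lower, 365 (261 and 104) changed with the astrocyte covariate, 446 (313 and 133) with astrocyte and choroid plexus covariates and 706 (629 and 77) without the 3 trained mice highest in choroid plexus markers. The number lower was 1058 in DESeq2, 1062 with filterByExpr, 827 with the 12 mice alone and 843 with protein-coding genes alone. Leaving out 1 mouse gave 1287 to 1975 genes, 901 to 1285 higher and 304 to 690 lower, with 308, 304 and 305 lower without HC zt3 replicates 3 and 4 and ORM+1 h replicate 4. The cause was not tested.

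Replicate numbers were not treated as pairs. The deviations of same-numbered mice correlated at 0.607, 0.504 and 0.605 for replicates 1, 2 and 6. For replicates 3, 4 and 5 they correlated at 0.021, 0.066 and -0.144, and 2 of 6 numbers correlated best with themselves. Replicates 1 and 6 had the highest summed choroid plexus markers in both groups, 4332 and 4116 CPM in home cage and 17078 and 13682 CPM in trained mice. Whether same-numbered mice shared a batch or a dissection was not tested. With the replicate block 1245 genes were higher and 538 lower, and with the block in the 12 mice alone 3693 changed, 2111 higher and 1582 lower.

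Of 186 calls among 209 genes chosen by the rule or after their values were seen, not all of which the text describes, 111 were lost and 14 turned direction with the astrocyte covariate, 107 and 15 with both covariates, and 72 were lost without the 3 mice. Single mice left out cost 4 to 30 calls, and the other alternatives 0 to 15. Log2 fold changes that turned, those without a call included, were, with the astrocyte covariate, Aldoc -0.16, Col11a2 -0.27, Cspg5 -0.10, Cxcl14 -0.011, Fkbp5 0.016, Grin2c -0.14, Hbegf -0.12, Kcnj10 -0.035, Kcnj16 -0.19, Myl9 -0.053, Nefh 0.0019, Nrarp -0.064, Pdgfrb -0.11, Ptprz1 -0.025, Scg3 -0.068, Tubb2b -0.086, and with both covariates, Aldoc -0.15, Col11a2 -0.25, Cspg5 -0.086, Fkbp5 0.03, Grin2c -0.12, H2-K1 -0.11, Hbegf -0.12, Kcnj10 -0.0154, Kcnj16 -0.17, Myl9 -0.056, Nefh 0.0078, Nrarp -0.044, Pdgfrb -0.11, Plxnb1 -0.012, Ptprz1 -0.0032, Scg3 -0.046, Tubb2b -0.06. Foxj1 was -0.50 without the 3 mice. Depth limits what can be said of genes with few counts, such as Kcnk15.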
